A study of Mus musculus with 11 samples.

Results

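The internal portions of IAP elements were followed copy by copy in poly-A RNA of whole testes from mice at postnatal day 5. Members were all rows of the deposited transposable element (TE) copy table whose subfamily name begins with IAP and ends in -int and whose value lies above 0 TPM (transcripts per 1000000, here relative to all TE reads of a library) in at least 1 library. This rule gave 4801 of the 14825 IAP internal rows of the table, and 4801 of the 578629 TE copies of any kind above 0 TPM. They belong to 9 subfamilies and to 3142 loci, where a locus joins copies on the same strand that lie within 500 bases of each other.

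Testes came from 4 genotypes on a C57Bl6/J background. WT animals were those the study calls wild type (2 libraries), and the labels do not give their alleles. Dnmt3C KO animals carried 2 null alleles of Dnmt3C in all cells (Dnmt3CKO/KO, 3 libraries). Nrf1 cKO animals, labelled Nrf1KO/KO, carried 1 floxed and 1 null Nrf1 allele with the Ddx4-Cre (Vasa-Cre) driver, which restricts the deletion to germ cells and leaves every somatic cell with 1 intact copy (3 libraries). The dKO animals, labelled Dnmt3CKO/KO Nrf1KO/KO, combined both (3 libraries). Each library is described as whole testis of littermates. Totals ran from 26063590 to 39365841 counts per library. Reads on TE copies numbered 525115 to 1071134, and 1 read on a copy of 1000 bases was worth 0.168 to 0.397 TPM, so that single-copy values of a few reads carry a large counting error. Counts on TEs made up 3.07% and 2.91% of all counts in WT, 2.2 to 2.78% in Dnmt3C KO, 1.60 to 2.42% in Nrf1 cKO and 2.42 to 3.07% in dKO. Gene-level counts of Nrf1 (52.2 to 57.9 CPM, counts per 1000000, in Nrf1 cKO and 57.0 and 58.0 CPM in WT) and of Dnmt3c (3.01 to 4.51 CPM in Dnmt3C KO and 4.16 and 4.87 CPM in WT) did not separate the genotypes. They cover exons outside the deletions and, for Nrf1, somatic cells, so that they do not check the labels.

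Intracisternal A-particle (IAP) elements are long terminal repeat (LTR) retrotransposons of the ERVK group that copy themselves through an RNA intermediate and are among the youngest mobile elements of the mouse. Transcription starts in the 5′ LTR, which holds the promoter, and runs through the internal portion, which encodes gag, protease and polymerase, into the 3′ LTR. In fetal male germ cells the piRNA pathway directs DNA methylation to such young LTRs, and DNMT3C, a rodent-specific DNA methyltransferase, deposits it there. NRF1 is a transcription factor whose binding to its GC-rich motif is blocked by CpG methylation, and the study asked how it bears on retrotransposon expression once that methylation is missing.

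The internal portion opens with the primer binding site, where a tRNA anneals to start reverse transcription, and this stretch shows how the 2 most transcribed subfamilies, IAPEz-int and IAPEY4_I-int, differ. Each sequence is given 5′ to 3′ on the element's strand in GRCm38, with the last 40 bases of the 5′ LTR first and the primer binding stretch in capitals. It starts at the 3rd base of the internal portion. Sequences were read from GENCODE M21 transcripts, or from the RefSeq promoter window of Gm52432 for IAPEz-int_dup3871 (GRCm38.p6), and all 6 are reference sequence.
IAPEz-int_dup2166, chr5:105728866-105729085, minus strand, IAPLTR1_Mm on both sides: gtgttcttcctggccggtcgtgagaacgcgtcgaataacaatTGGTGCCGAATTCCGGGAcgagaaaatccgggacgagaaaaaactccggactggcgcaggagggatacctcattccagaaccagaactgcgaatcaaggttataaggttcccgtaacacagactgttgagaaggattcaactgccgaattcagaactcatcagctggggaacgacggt
IAPA_MM-int_dup101, chr13:108002479-108002698, minus strand: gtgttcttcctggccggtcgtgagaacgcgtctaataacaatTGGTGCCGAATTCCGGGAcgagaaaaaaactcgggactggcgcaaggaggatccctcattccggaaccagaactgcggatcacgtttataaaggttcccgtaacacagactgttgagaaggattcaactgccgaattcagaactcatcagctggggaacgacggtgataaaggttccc
IAPEz-int_dup3871, chrX:65707223-65707442, plus strand, IAPLTR1a_Mm on both sides: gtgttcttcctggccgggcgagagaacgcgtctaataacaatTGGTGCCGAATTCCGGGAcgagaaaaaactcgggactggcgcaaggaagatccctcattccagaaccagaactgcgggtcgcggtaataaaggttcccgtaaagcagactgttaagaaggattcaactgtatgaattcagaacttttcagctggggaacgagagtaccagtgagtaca
IAPEY4_I-int_dup498, chr19:9836714-9836878, minus strand: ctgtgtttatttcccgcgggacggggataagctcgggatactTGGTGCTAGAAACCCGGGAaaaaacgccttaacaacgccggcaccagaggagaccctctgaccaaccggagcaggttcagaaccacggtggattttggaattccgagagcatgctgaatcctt
IAPEY4_I-int_dup407, chr14:41053688-41053853, plus strand: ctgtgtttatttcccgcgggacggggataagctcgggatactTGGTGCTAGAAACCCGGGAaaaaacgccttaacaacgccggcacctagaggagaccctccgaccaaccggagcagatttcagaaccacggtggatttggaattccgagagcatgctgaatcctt
IAPEY4_I-int_dup459, chr16:90349421-90349586, minus strand: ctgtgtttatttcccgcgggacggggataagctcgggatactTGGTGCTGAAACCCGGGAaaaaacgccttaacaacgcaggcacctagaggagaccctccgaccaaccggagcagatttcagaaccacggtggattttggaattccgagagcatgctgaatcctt

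Both IAPEz-int copies and the IAPA_MM-int copy carried the same 18 bases in capitals. The stretch of IAPEY4_I-int_dup459 differed from that of IAPEz-int_dup2166 by C7T, T11A and T12C, counted from 1 at the first capital, and those of IAPEY4_I-int_dup498 and IAPEY4_I-int_dup407 were 19 bases long. Within the printed stretches IAPEz-int_dup2166 matched IAPA_MM-int_dup101 at 89.5% of aligned columns and IAPEz-int_dup3871 at 83.1%. The 3 IAPEY4_I-int stretches matched each other at 95.2 to 97.6%. The quantification divided a read that fits several copies among them, so that values of single copies are less certain than sums over copies, and how many reads copies shared was not measured.

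IAPEz-int held 3735 of the 4801 copies and 50.7% of the reads on them. IAPEY4_I-int held only 87 copies and 42.1% of the reads. IAP1-MM_I-int (192 copies) followed with 2.87% of reads, IAP-d-int (221) with 1.25%, IAPLTR3-int (102) with 1.11%, IAPA_MM-int (53) with 0.808%, IAPEY3-int (251) with 0.760%, IAPEy-int (142) with 0.437% and IAPEY5_I-int (18) with 0.0164%. The share of a subfamily's annotated rows above 0 TPM in some library was 51.0% for IAPEz-int, 42.1% for IAPA_MM-int and 40.1% for IAP1-MM_I-int, against 5.75 to 18.8% for the other 6 subfamilies.

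Few copies were read in every library. Of the 4801 copies, 1406 were above 0 in 1 library and 179 in all 11, of which 110 were IAPEz-int and 33 IAPEY4_I-int. The 179 held 72.6% of the reads and the 1406 held 0.710%. A total of 899 copies had 1 read over all libraries, and 290 had 110 or more.

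**Figure D1:**
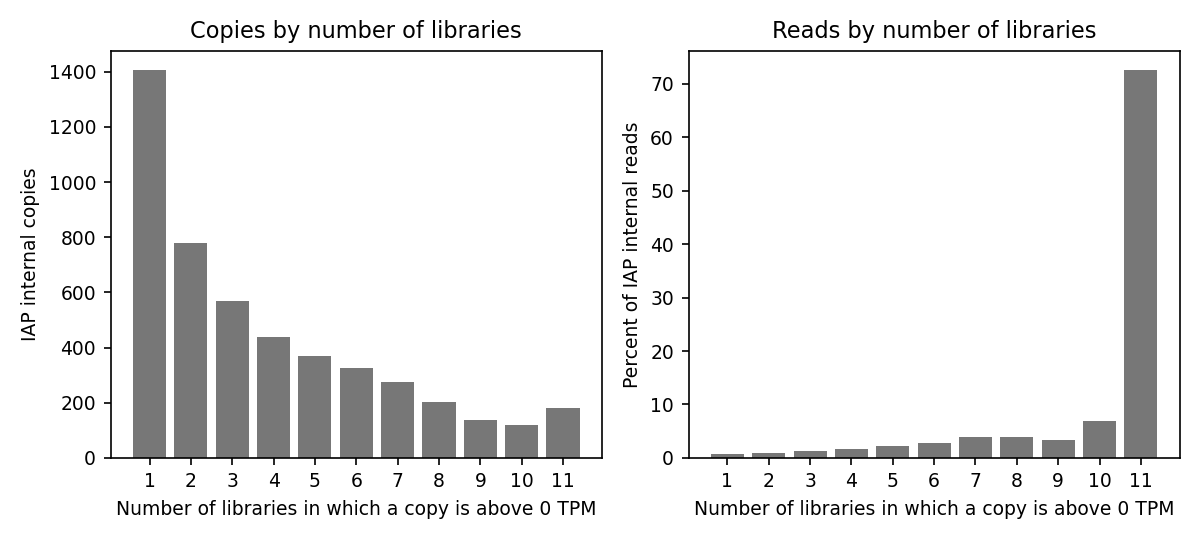
Number of IAP internal copies (left) and percent of all IAP internal reads (right) by the number of libraries, 1 to 11, in which a copy is above 0 TPM. Copies seen in 1 library are the most numerous (1406) and hold 0.710% of the reads, whereas the 179 copies seen in all 11 libraries hold 72.6%.

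By genotype, 1080 copies were above 0 in all 4, 955 in 3, 1146 in 2 and 1620 in 1. Of the copies seen in a single genotype, 669 were in Dnmt3C KO, 478 in dKO, 244 in Nrf1 cKO and 229 in WT, with a median of 1 read each, and WT had 1 library fewer. Among copies in exactly 2 genotypes, 566 were shared by Dnmt3C KO and dKO and 52 by WT and Nrf1 cKO. Such sharing counts depend on the number and depth of libraries, and no share over all TE copies stands beside them. Nrf1 cKO replicates 1 and 3 had the fewest TE reads (525115 and 610642). Copies above 0 per library numbered 1471 and 1287 in WT, 2478, 2074 and 1866 in Dnmt3C KO and 2370, 1678 and 1472 in dKO, against 1023, 1319 and 1145 in Nrf1 cKO. Per 100000 TE reads this was 137 and 136 copies in WT, 239 to 270 in Dnmt3C KO, 163 to 195 in Nrf1 cKO and 186 to 229 in dKO. All Dnmt3C KO libraries lay above the WT libraries in both measures. Every dKO library lay above every Nrf1 cKO library in copies, while per 100000 TE reads these genotypes overlapped. That ratio can be high in a shallow library, as in Nrf1 cKO replicate 1, with 525115 TE reads, 1023 copies and 195 per 100000. Of all TE copies above 0 TPM, IAP internal copies made up 0.711 and 0.786% in WT and 1.27 to 1.34% in Dnmt3C KO. They made up 0.873 to 1.04% in Nrf1 cKO and 0.919 to 1.15% in dKO.

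A set of 18 copies was above 0 in every library of Dnmt3C KO and dKO and in no library of WT or Nrf1 cKO, 0.375% of the members, where 0.0285% of all TE copies above 0 TPM were. The reverse pattern was found for 1 copy (0.0208%, beside 0.00501%). Of the 18, 15 were IAPEz-int, and all but 1 of these had IAPLTR1_Mm at the 5′ end of their locus, in some with another piece between. IAPEz-int_dup4664 (chr10:90328180-90329396, minus strand, in an intron of Anks1b on the opposite strand) had 200, 22 and 62 reads in Dnmt3C KO and 96, 33 and 26 in dKO. IAPEz-int_dup4595 (chr10:65954442-65955557, minus strand, intergenic) had 97, 70 and 23 reads in Dnmt3C KO and 121, 10 and 21 in dKO. IAPEz-int_dup1989 (chr5:47969773-47970989, minus strand, intergenic) had 118, 45 and 26 reads in Dnmt3C KO and 88, 19 and 5 in dKO. For lower limits on folds, 0 reads were taken as at most 3 per genotype, which covers counting error only. IAPEz-int_dup4664 was at least 63.0-fold higher in Dnmt3C KO than in WT and at least 49.0-fold higher in dKO than in Nrf1 cKO. IAPEz-int_dup4595 was at least 42.2-fold and 48.1-fold higher. These limits pool the libraries of a genotype, and replicate 1 had the most reads in each case. The smallest of the 18 by total, an IAPLTR2_Mm-flanked piece, had 9 reads in all.

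To compare genotypes at copies with enough reads, the 290 copies of 110 or more reads over the 11 libraries were taken, a total that copies high in Dnmt3C KO or dKO reach more easily. All TE copies were filtered alike. They hold 84.4% of all reads on IAP internal copies. Their reads are given as RPM, here reads per 1000000 counts of all genes and TEs after TMM scaling. The highest mean of the 4 genotypes lay in Dnmt3C KO for 199 of the 290, in WT for 39, in Nrf1 cKO for 28 and in dKO for 24, where it lay there for 15.3%, 46.3%, 10.7% and 27.7% of all TE copies with as many reads. The lowest mean lay in Nrf1 cKO for 132, in WT for 98, in Dnmt3C KO for 36 and in dKO for 24, beside 47.1%, 12.2%, 28.9% and 11.7%. Between Dnmt3C KO and WT, 135 of the 290 (46.6%) were higher in every Dnmt3C KO library than in any WT library, where 5.9% of all TE copies with as many reads were, and 27 (9.31%) were lower in every library, where 21.5% of TE copies were. Between dKO and Nrf1 cKO, 69 (23.8%) were higher without overlap and 1 lower, beside 11.2% and 1.24% of TE copies. Between dKO and Dnmt3C KO, 21 (7.24%) were lower and 14 higher, beside 1.97% and 7.89%. Between Nrf1 cKO and WT, 42 (14.5%) were lower and 10 higher, beside 25.2% and 2.46%. Between dKO and WT, 78 (26.9%) were higher and 11 lower, beside 7.27% and 13.6%. On the TPM scale 154 copies were higher and 8 lower without overlap for Dnmt3C KO against WT, where 11.9% and 9.63% of TE copies were. For dKO against Nrf1 cKO 58 were higher and 16 lower (5.49% and 5.89% of TE copies), and for dKO against Dnmt3C KO 6 were higher and 40 lower (4.9% and 4.22%). For Nrf1 cKO against WT 42 were higher and 27 lower (13.5% and 8.41%), and for dKO against WT 91 and 4 (11.6% and 7.75%). The direction of the larger count thus turned between the scales for Nrf1 cKO against WT.

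The excess in Dnmt3C KO was spread over many copies. Summed over the members, the net difference in mean RPM between Dnmt3C KO and WT was 381.7. Gains are the differences of copies with the higher mean in Dnmt3C KO. The 10 copies with the largest gains held 18.0% of the summed gains and the 100 largest held 54.2%. Of the gains, 89.0% fell on IAPEz-int and 70.9% on IAPEz-int copies between IAPLTR1_Mm LTRs. For dKO against Nrf1 cKO the net difference was 213.7, with 14.9% of the gains in 10 copies and 61.7% on IAPLTR1_Mm-flanked copies. The share of the summed TPM held by the 10 highest copies of each library was 26.2 and 28.2% in WT, 14.5 to 19.5% in Dnmt3C KO, 30.3 to 34.2% in Nrf1 cKO and 16.9 to 27.5% in dKO.

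The difference between genotypes varied with the LTRs that flank an IAPEz-int copy. LTR names mark subfamilies of the promoter. Classes were formed after the data had been seen, and their sums are given with no test. The 1056 IAPEz-int copies between 2 IAPLTR1_Mm LTRs summed to 204 and 122 RPM in WT, 124, 175 and 134 in Nrf1 cKO, 728, 395 and 387 in Dnmt3C KO and 495, 176 and 273 in dKO. All Dnmt3C KO libraries lay above WT (ratio of means 3.08), and dKO lay above Nrf1 cKO by a narrow margin at its lowest library (ratio 2.18), while dKO overlapped Dnmt3C KO (0.626). The 1009 copies between IAPLTR1a_Mm LTRs, a closely related LTR, summed to 54.9 ± 10.1 in WT (SD, n = 2), 78.3 ± 18.7 in Dnmt3C KO, 50.7 ± 10.3 in Nrf1 cKO and 73.3 ± 17.6 in dKO (SD, n = 3 each), with ratios of 1.43 and 1.45 and no overlap in either comparison. The margin was narrow between dKO (lowest 61.98) and Nrf1 cKO (highest 61.88), where the ratio was 1.12 on the TPM scale. The 460 copies between IAPLTR2_Mm LTRs had 18.7 ± 2.34 in WT and 33.9 ± 7.61 in Dnmt3C KO (ratio 1.82, no overlap), and 13.7 ± 3.74 in Nrf1 cKO and 21.2 ± 7.08 in dKO, which overlapped. The 141 copies between IAPLTR2b LTRs had 40.1 ± 7.15, 35.8 ± 2.48, 45.8 ± 10.8 and 42.2 ± 1.92 in WT, Dnmt3C KO, Nrf1 cKO and dKO, and overlapped in both comparisons (ratios 0.893 and 0.921). On the TPM scale the ratio of Dnmt3C KO to WT was 1.23, and the 1 locus of IAPEz-int_dup1944 held 31.6 RPM of the WT mean. Among copies of 110 or more reads, 98 of 156 with IAPLTR1_Mm on both sides were higher in every Dnmt3C KO library than in WT, 8 of 28 with IAPLTR1a_Mm, 4 of 9 with IAPLTR2_Mm and 1 of 5 with IAPLTR2b, beside 5.9% of TE copies with as many reads. Lower in every library were 1, 2, 0 and 1 of them, beside 21.5%.

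**Figure D2:**
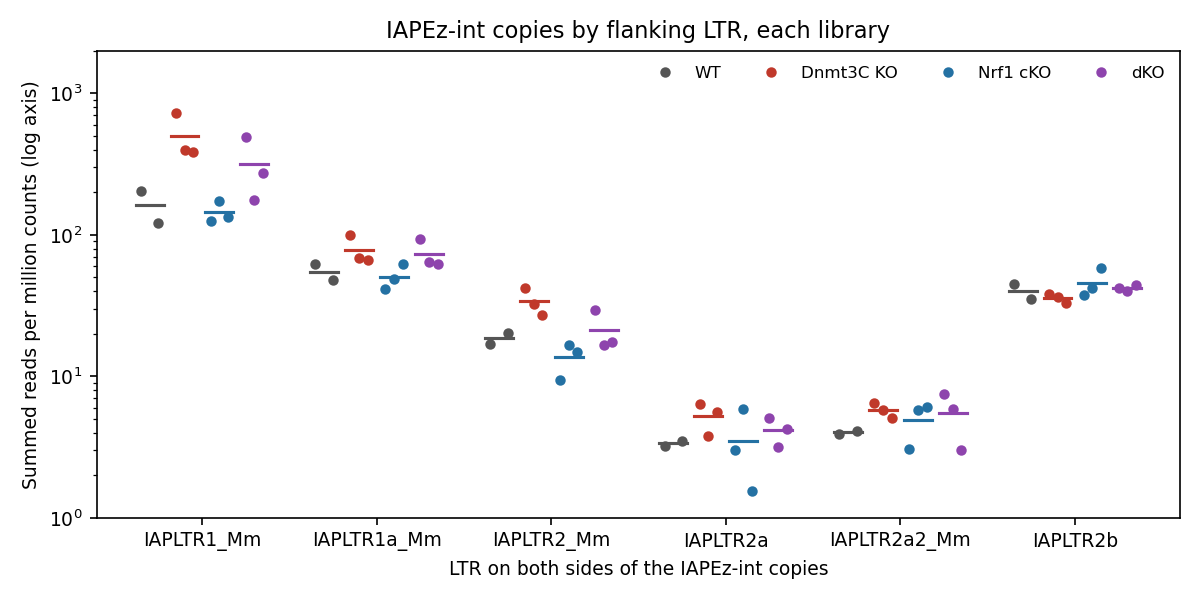
RPM (reads per 1000000 counts, log axis) summed over IAPEz-int copies with the same LTR on both sides, for each library (points) with genotype means (lines). IAPLTR1_Mm-flanked copies lie at 387 to 728 in Dnmt3C KO against 122 and 204 in WT, whereas IAPLTR2b-flanked copies lie at 33.1 to 57.9 over the 11 libraries.

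The difference between genotypes also varied with the form of the element. A common form of IAPEz-int locus was annotated as 2 abutting pieces, one of 1000 to 1400 bases and one of 3000 to 3400 bases, with at most 5 bases between them. These 416 copies at 217 loci, of which 359 copies lie between IAPLTR1_Mm LTRs, summed to 164 and 94.2 RPM in WT, 562, 314 and 304 in the Dnmt3C KO libraries, 96.8, 140 and 95.6 in Nrf1 cKO, with 380, 124 and 230 in dKO. They were 3.05-fold higher in Dnmt3C KO than in WT with no overlap, and 2.21-fold higher in dKO than in Nrf1 cKO with overlap. The 779 IAPEz-int copies annotated as 1 piece of 6000 bases or more, about the length of the complete internal portion, had 88.4 ± 25.3 in WT and 115 ± 22.5 in Dnmt3C KO (SD, n = 2 and 3), which overlapped (ratio 1.30). Within IAPLTR1_Mm-flanked copies, the 320 of 1 piece had a ratio of Dnmt3C KO to WT of 1.99, the 359 in 2 abutting pieces of 3.003 and the 377 others of 5.55, each with no overlap. Within IAPLTR1a_Mm-flanked copies, the 365 of 1 piece had a ratio of 1.27 with overlap and the 48 in 2 abutting pieces of 2.98 with none, on 0.661 and 1.32 RPM in WT. Among copies of 110 or more reads, 68 of 105 in 2 abutting pieces and 9 of 31 in 1 long piece were higher in every Dnmt3C KO library than in WT, and 0 and 2 lower, beside 5.9% and 21.5% of TE copies with as many reads.

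Position relative to genes was read from the GENCODE M21 annotation. Of the IAPLTR1_Mm-flanked IAPEz-int copies, 725 were intergenic. They summed to 58.3 and 44.4 RPM in WT, 395, 201 and 158 in Dnmt3C KO and 252, 95.1 and 83.7 in dKO, against 48.2, 51.5 and 33.4 in Nrf1 cKO, with no overlap for Dnmt3C KO against WT (ratio 4.90) or for dKO against Nrf1 cKO (3.24). The 212 copies in introns on the strand opposite to the gene had 53.7 ± 21.3 in WT and 154 ± 50.5 in Dnmt3C KO (SD, n = 2 and 3; ratio 2.87, no overlap). The 73 copies in introns on the gene's own strand, where reads of unspliced gene RNA cannot be told apart from reads of the element, had 28.3 ± 16.5 and 37.8 ± 13.1, which overlapped (1.34). Over all 4801 members, copies in exons on the gene's strand had 180 ± 5.08 in WT and 166 ± 12.0 in Dnmt3C KO, which overlapped, and the direction turned on the TPM scale (ratio 1.25).

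**Figure D3:**
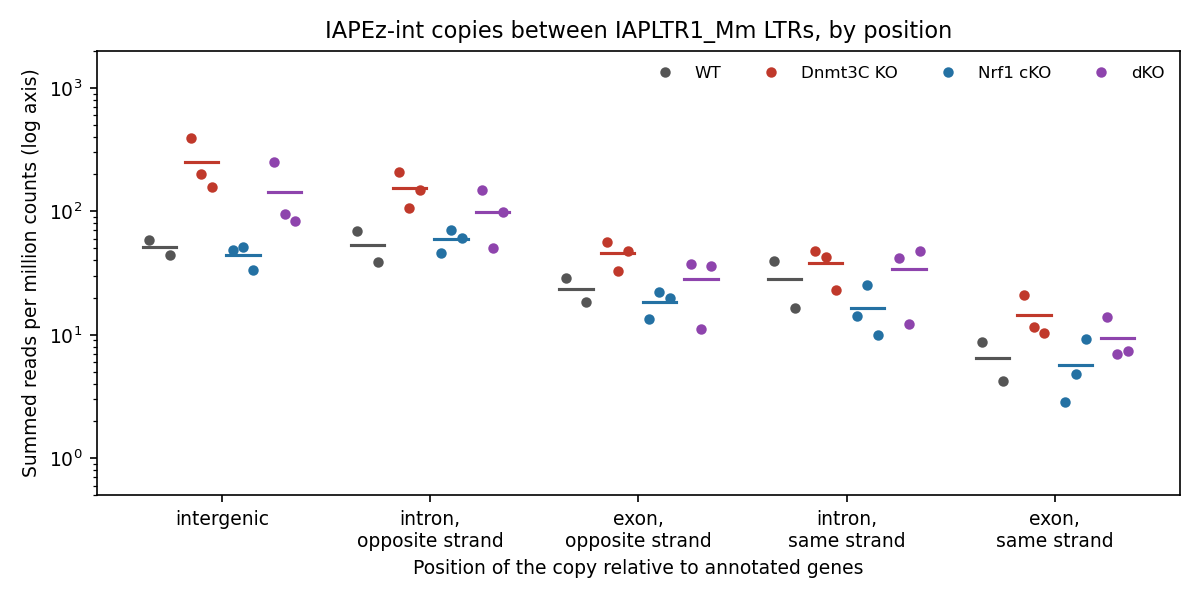
RPM (reads per 1000000 counts, log axis) summed over IAPEz-int copies between IAPLTR1_Mm LTRs by their position relative to annotated genes, for each library (points) with genotype means (lines). Intergenic copies lie at 158 to 395 in Dnmt3C KO against 44.4 and 58.3 in WT, and copies in introns on the gene's strand overlap between these genotypes.

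IAPA_MM-int proved to be mostly a name for the first piece of IAPEz-int loci. Of its 126 annotated rows, 121 lay in a locus that also holds an IAPEz-int piece, and so did 52 of its 53 members. Members were 84 to 384 bases long, 52 were the first piece of their locus and 45 had IAPLTR1_Mm directly upstream, so that they cover the start of the internal portion. They summed to 3.51 and 2.13 RPM in WT, 2.18, 3.43 and 2.01 in Nrf1 cKO, 22.1, 11.1 and 9.08 in Dnmt3C KO and 15.7, 5.37 and 4.34 in dKO, and neither comparison overlapped. The 93 IAPLTR1_Mm-flanked IAPEz-int pieces in loci with an IAPA_MM-int piece had 2.78 and 3.67 in WT, 31.3, 14.2 and 13.04 in the Dnmt3C KO libraries, 3.25, 2.61 and 1.74 in Nrf1 cKO, with 21.3, 8.77 and 6.29 in dKO. The ratios were 6.06 for Dnmt3C KO to WT and 4.78 for dKO to Nrf1 cKO, against 3.02 and 2.14 for the 963 pieces in loci without one. The difference between these ratios was not tested.

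The IAPEY4_I-int loci with most reads were near full-length elements of 7623 to 7668 bases. A set of 10 loci of any subfamily held 46.6% of all reads on IAP internal copies, 7 of them IAPEY4_I-int. IAPEY4_I-int_dup12 (chr1:100224149-100231814, minus strand, in an intron of Cntnap5b on the opposite strand) had 82.8 and 78.1 RPM in WT, 62.5, 72.5 and 68.2 in Dnmt3C KO and 95.6, 78.6 and 93.0 in dKO, against 58.8, 140 and 113 in Nrf1 cKO. IAPEY4_I-int_dup498 (chr19:9829174-9836838, minus strand, exonic in the lincRNA AC132253.9) had 79.6 and 74.6 in WT and 59.4, 78.2 and 97.8 in Nrf1 cKO, against 63.8, 62.8 and 67.1 in the Dnmt3C KO libraries and 83.8, 61.3 and 86.2 in dKO. At both, every Dnmt3C KO library lay below every WT library in RPM, and the other genotypes overlapped WT. In TPM Dnmt3C KO overlapped WT at both, with means of 73.0 against 67.3 at IAPEY4_I-int_dup12 and of 69.03 against 64.5 at IAPEY4_I-int_dup498. Of the 29 IAPEY4_I-int copies of 110 or more reads, 13 were lower in every Dnmt3C KO library than in WT and 1 was higher on the RPM scale, beside 21.5% and 5.9% of TE copies with as many reads. In TPM 3 were lower and 4 higher, beside 9.63% and 11.9%. Summed over its 87 copies IAPEY4_I-int had 401 and 410 in WT, 319, 513 and 480 in Nrf1 cKO, 345, 341 and 347 in Dnmt3C KO and 426, 343 and 420 in dKO. On the TPM scale, whose total is the TE reads, the direction between Dnmt3C KO and WT turned (ratio of means 1.12).

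**Figure D4:**
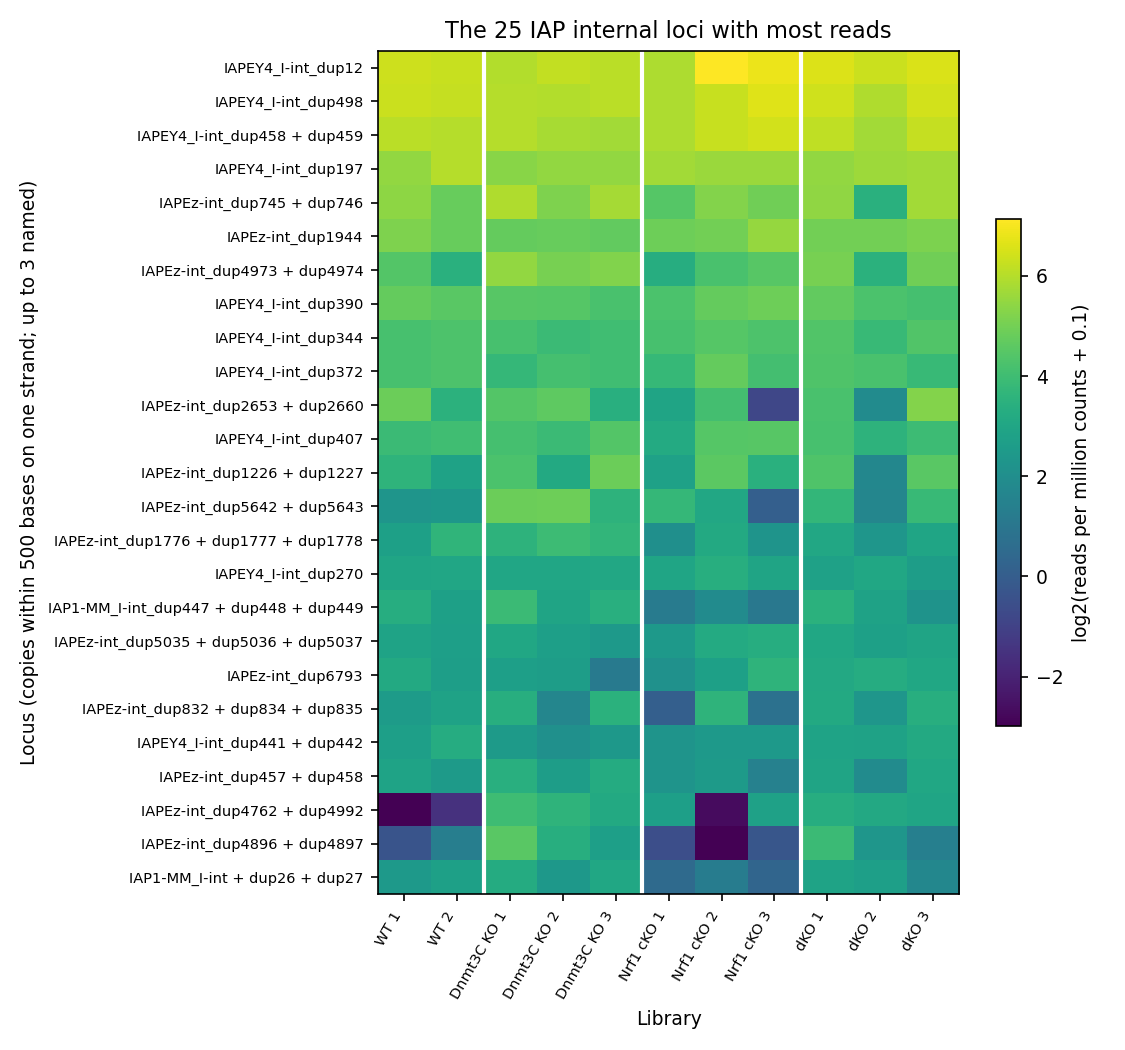
Heat map of log2(RPM + 0.1) in each library (columns, grouped by genotype) for the 25 IAP internal loci with most reads (rows, named by their pieces). At the top, IAPEY4_I-int_dup12 ranges from 58.8 to 140 over the 11 libraries, whereas IAPEz-int_dup4762 with IAPEz-int_dup4992, near the bottom, has 0.0270 and 0.240 in WT and 8.76 to 15.7 in Dnmt3C KO.

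Single IAPEz-int loci showed both steady and strongly different levels. The locus of IAPEz-int_dup745 and IAPEz-int_dup746 (chr2:84505545-84510082, plus strand, IAPLTR1_Mm on both sides, overlapping Gm13710 on the opposite strand) had most reads of IAPEz-int, with 42.7 and 27.5 RPM in WT, 60.8, 36.2 and 54.6 in the Dnmt3C KO libraries, 21.8, 37.9 and 30.9 in Nrf1 cKO, with 43.8, 10.8 and 52.2 in dKO. The genotypes overlapped there. The locus of IAPEz-int_dup1944 (chr5:30223381-30229822, minus strand, 1 piece between IAPLTR2b LTRs, intergenic) stood at 36.0 and 27.2 in WT and 25.8 to 45.7 in the 9 mutant libraries.

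The locus of IAPEz-int_dup4992 and IAPEz-int_dup4762 (chr11:116389793-116394317, plus strand, in an intron of Rnf157 on the opposite strand) had 0.0270 and 0.240 RPM in WT, 15.7, 11.8 and 8.76 in Dnmt3C KO and 9.90, 8.71 and 7.61 in dKO, against 6.52, 0.0544 and 6.85 in Nrf1 cKO. Replicate 2 of Nrf1 cKO lay within the range of WT, and the other Nrf1 cKO libraries were near the mutants that lack DNMT3C. The locus of IAPEz-int_dup4896 and IAPEz-int_dup4897 (chr11:51665383-51669881, minus strand, intergenic) had 0.675 and 2.46 in WT, 0.576, 0.0272 and 0.735 in Nrf1 cKO, 23.3, 10.2 and 6.51 in Dnmt3C KO and 14.98, 4.97 and 2.47 in dKO, where every dKO library lay above every Nrf1 cKO library. IAP1-MM_I-int pieces in an intron of the pseudogene Btnl7-ps on the opposite strand (chr17:34543814-34546257, plus strand) had 9.74 and 6.79 in WT, 15.1, 7.42 and 10.4 in the Dnmt3C KO libraries, 2.21, 3.64 and 2.01 in Nrf1 cKO, with 10.9, 7.07 and 4.58 in dKO. All Nrf1 cKO libraries lay below every other library at this locus.

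In the test of single copies, limma on log2(TPM + 0.1) over all TE copies, no IAP internal copy passed an adjusted p of 0.01 in any of the 6 comparisons, and no other TE copy did. Copies entered if they reached 0.5 TPM in as many libraries as the smaller genotype has, so that copies high in 1 genotype only were let in through that genotype. Between Dnmt3C KO and WT 861 IAP internal copies were tested, of which 145 (16.8%) lay higher and 7 lower with an unadjusted p below 0.05, beside 2.11% and 5.22% of all TE copies tested. Their median log2 difference was 1.89, or 1.29 with the 230 copies that had no read in a genotype at their bound, and that of all TE copies was -0.33. With no filter the median of 3942 copies was 0.59 against -0.11 and 112 lay higher (0.892% of all TE copies). With a pseudocount of 1 the median was 0.70 against -0.09 and 87 of the 861 lay higher (1.18%), and 227 of 715 did when Dnmt3C KO replicate 3 was left out. Germ cell markers, which summed to 659 and 538 CPM in WT and 937, 539 and 634 CPM in Dnmt3C KO, overlapped between these genotypes, and 3 of 20 lay higher with an unadjusted p below 0.05 and 1 lay lower (2.56% and 2.86% of all features; median log2 difference 0.30). Markers of macrophages (2 of 4) and Leydig cells (2 of 6) were also higher, and the part of these cells in the IAP levels was not tested. An edgeR test on the recovered whole reads gave no call either. Scaled to the TE reads, 236 of 458 copies lay higher with an unadjusted p below 0.05 and 2 lay lower, beside 4.89% and 1.15% of all TE copies. Scaled to all counts, 197 of 430 were higher and 8 lower, beside 3.31% and 3.88%.

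IAPA_MM-int_dup80 (chr10:65955532-65955786, minus strand, intergenic, at the head of IAPEz-int_dup4595) had 2 and 0 reads in WT, 171, 152 and 79 in Dnmt3C KO, none in Nrf1 cKO, and 133, 17 and 13 in dKO. Its log2 difference was 8.27 (SE 1.17) between Dnmt3C KO and WT, with an adjusted p of 0.2607 by limma. The difference rests on 2 reads in WT and ran from 6.36 to 10.2 on leaving out a library. IAPEz-int_dup2166 (chr5:105727774-105729045, minus strand, overlapping an exon of Lrrc8d on the opposite strand) had 1 and 0 reads in WT, 230, 112 and 66 in Dnmt3C KO and 151, 82 and 3 in dKO, against 0, 5 and 0 in Nrf1 cKO, and a log2 difference of 7.17 (SE 1.05, the same adjusted p, 6.57 to 7.78 on leaving out a library). IAPEz-int_dup4623 (chr10:80976414-80977103, plus strand, in an intron of Gng7 on the opposite strand) had 95, 36 and 39 reads in Dnmt3C KO and none in WT, and was at least 37.7-fold higher there. These 3 copies, the first by p in this comparison, had every Dnmt3C KO library above every WT library. Among the copies of highest level, IAPEz-int_dup746 had 54.5 and 35.6 TPM in WT and 100, 78.1 and 104 TPM in Dnmt3C KO (log2 difference 1.08, SE 0.29, limma adjusted p of 0.2607). In RPM the genotypes overlapped there, with 28.7 and 17.5 in WT and 44.8, 27.2 and 42.9 in Dnmt3C KO.

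**Figure D5:**
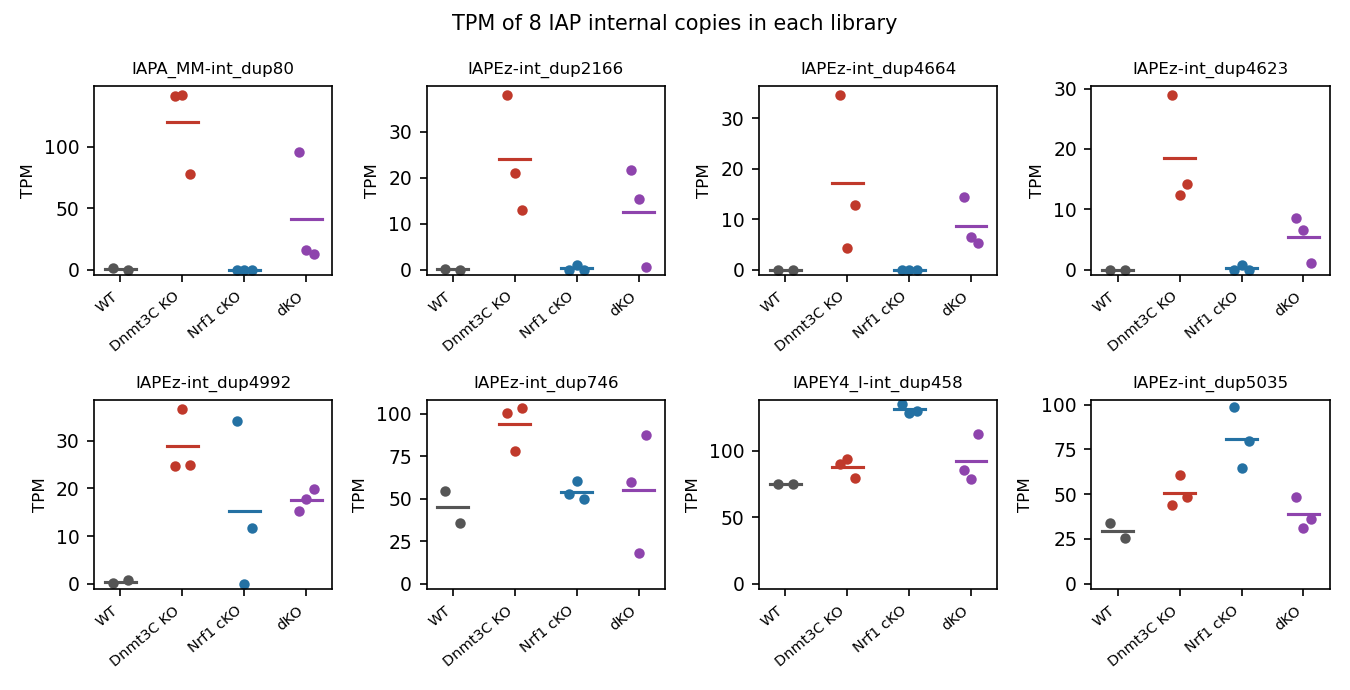
TPM of 8 IAP internal copies in each library (points) with genotype means (lines); each panel has its own axis from 0. IAPA_MM-int_dup80 lies at 77.7 to 142 TPM in Dnmt3C KO against 1.31 and 0 in WT and 0 in Nrf1 cKO, whereas IAPEY4_I-int_dup458 is highest in Nrf1 cKO at 129 to 135.

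Between dKO and Nrf1 cKO 440 copies were tested, of which 46 (10.5%) lay higher and 4 lower with an unadjusted p below 0.05, beside 4.4% and 1.59% of all TE copies, with a median log2 difference of 0.82 (0.81 with the 27 copies without a read in a genotype at their bound) against 0.39. Without dKO replicate 1 the medians were 0.46 and 0.43, and 128 copies lay higher when dKO replicate 3 was left out. With no filter on low values the median of 3770 copies was 0.34, below the 0.69 of all TE copies, and 31 lay higher (1.48% of all TE copies). By edgeR on reads scaled to the TE reads the median was 0.17 against -0.01. IAPA_MM-int_dup80 had 133, 17 and 13 reads in dKO. Its limit of at least 51.6-fold over Nrf1 cKO pools these reads and rests mostly on replicate 1. All 3 dKO libraries lay above Nrf1 cKO there, with a limma adjusted p of 0.2097. IAPEz-int_dup4664, with no read in Nrf1 cKO, shared that adjusted p. IAP-d-int_dup1069 had 3, 2 and 4 reads in Nrf1 cKO and none elsewhere. Germ cell markers summed to 577, 516 and 286 CPM in dKO and 393, 245 and 279 CPM in Nrf1 cKO, which overlapped. Of the 20, 4 were higher in dKO at an unadjusted p under 0.05 by edgeR (1.94% of all features) and none lower, and their median log2 difference was 0.59, so that they moved in the direction of the IAP copies. Their part in the IAP levels was not tested.

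Between dKO and Dnmt3C KO 706 copies were tested, of which 30 (4.25%) lay lower and 4 higher with an unadjusted p below 0.05, beside 2.2% and 2.57% of all TE copies, and the median log2 difference was -0.82 (-0.81 with the 9 copies without a read in a genotype at their bound) against 0.03. The lower copies numbered 18 without dKO replicate 2, 80 without dKO replicate 1, and 47 when Dnmt3C KO replicate 3 was left out. The copy of smallest p, IAP-d-int_dup15 (chr1:65359764-65359990, minus strand, in an intron of Pth2r on the opposite strand), went the other way, with no read in Dnmt3C KO, 3, 8 and 9 in dKO and 0 and 2 in WT, so that every dKO library lay above Dnmt3C KO. IAP1-MM_I-int_dup59 (chr3:97379061-97379342, minus strand, intergenic) had 27, 14 and 19 reads in Dnmt3C KO, 4, 4 and 1 in dKO, and 1 and 2 in WT. Its log2 difference was -2.94, with every dKO library below every Dnmt3C KO library. IAPEz-int_dup6676, the third by p, had 2 reads in each Dnmt3C KO library and none in dKO. Markers of germ cells moved with this comparison. Over 20 genes their CPM summed to 937, 539 and 634 in Dnmt3C KO and to 577, 516 and 286 in dKO, and 9 of the 20 were lower in dKO at an unadjusted p under 0.05 by edgeR (4.08% of all features), none with an adjusted p under 0.01. Of the somatic markers, 3 of 10 for Sertoli cells were higher (3.1% of all features) and 2 of 6 for Leydig cells lower. In WT, Dnmt3C KO and dKO, replicate 1 had most germ cell marker counts and most IAPEz-int reads. WT had 659 and 538 CPM of markers beside 362 and 262 RPM on IAPEz-int. In dKO, replicate 2 had 516 CPM of markers and 337 RPM on IAPEz-int, against 286 and 435 in replicate 3, and in Nrf1 cKO replicate 1 had most markers (393) and the fewest IAPEz-int reads (234 RPM). In RNA of a whole tissue, fewer germ cells and less RNA per germ cell cannot be told apart, and the part of either in the IAP levels was not tested.

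Between Nrf1 cKO and WT 453 copies were tested, of which 12 (2.65%) lay higher and 11 (2.43%) lower with an unadjusted p below 0.05, beside 1.35% and 8.45% of all TE copies. Their median log2 difference was 0.07 (0.00 with the 48 copies without a read in a genotype at their bound) against -0.50 for all TE copies. These counts were 26 higher and 28 lower without Nrf1 cKO replicate 2, and 20 higher with 19 or 18 lower without either of the other Nrf1 cKO libraries. They were 23 and 125 without WT replicate 1, 15 and 106 without WT replicate 2, and 3 and 15 by edgeR on reads scaled to all counts. Among the copies of highest level, IAPEY4_I-int_dup458 (chr16:90341891-90345341, minus strand, exonic in Gm49708) had 75.4 and 75.3 TPM in WT and 135, 129 and 130 TPM in Nrf1 cKO (log2 difference 0.80, SE 0.17, limma adjusted p of 0.09732). IAPEz-int_dup5035 (chr12:17928980-17929176, plus strand, in an intron of Gm49329 on its strand) had 34.0 and 25.3 TPM in WT and 98.7, 64.4 and 79.9 TPM in Nrf1 cKO (the same adjusted p). Both stood higher in all Nrf1 cKO libraries on this scale. In reads, IAPEY4_I-int_dup458 had 1553 and 1304 in WT and 1176, 1825 and 1402 in Nrf1 cKO, which overlapped. IAPEy-int_dup6, in an intron of B3gat2 on the opposite strand, had 18 and 7 reads in WT and none in Nrf1 cKO. Germ cell markers summed to 659 and 538 CPM in WT and 393, 245 and 279 CPM in Nrf1 cKO. By edgeR, 15 of 20 were lower at an unadjusted p under 0.05 (4.22% of all features). Sertoli cell markers summed to 4260 and 4029 CPM in WT and 4931, 5106 and 7405 CPM in Nrf1 cKO. Of these, 2 of 10 were higher at that level (1.53% of all features) and none lower. The part of either in the IAP levels was not tested.

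Between dKO and WT 698 copies were tested, of which 40 (5.73%) lay higher and 8 lower with an unadjusted p below 0.05, beside 1.89% and 4.71% of all TE copies. The median log2 difference was 0.89 (0.55 with the 143 copies without a read in a genotype at their bound) against -0.31. Leaving out a library gave 54 to 117 higher (117 without dKO replicate 3, 68 without dKO replicate 2 and 61 without either WT library), and 80 and 74 lower without WT replicate 1 or 2. IAPEz-int_dup4762 had 0 and 3 reads in WT and 247, 188 and 148 in dKO (log2 difference 6.26, SE 1.12, 5.51 to 7.01 on leaving out a library, limma adjusted p of 0.3309), and IAPEz-int_dup4992 in the same locus had 1 and 5, and 105, 94 and 101. In the interaction test over 1274 copies, which asks whether loss of DNMT3C changed a copy differently with and without NRF1, 8 had a positive and 18 a negative term at an unadjusted p under 0.05, 0.628% and 1.41% beside 3.84% and 0.869% of all TE copies. This split turned with the libraries used. It was 79 positive and 49 negative without WT replicate 1, 69 and 44 without WT replicate 2, 14 and 10 without dKO replicate 2, and 11 and 44 without dKO replicate 1. By edgeR on reads scaled to all counts it was 18 and 22, and scaled to the TE reads 4 and 44.

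At the level of subfamilies, where each is a single row of the count tables, edgeR gave no IAP internal subfamily an adjusted p under 0.01 in any comparison, and no gene or other subfamily passed. At an unadjusted p under 0.05, 4 of 9 tested were higher in Dnmt3C KO than in WT and none lower (2.56% and 2.86% of all features). In dKO against Nrf1 cKO, 4 of 8 were higher and none lower (1.94% and 0.868%). In both cases these were IAPEz-int, IAPA_MM-int, IAP1-MM_I-int and IAPEy-int. As IAPA_MM-int pieces mostly lie in IAPEz-int loci, those 2 subfamilies are not separate readings. Between Nrf1 cKO and WT 2 of 8, IAP1-MM_I-int and IAPEy-int, were lower and none higher (4.22% and 1.53%), and between dKO and WT 1 of 8, IAPA_MM-int, was higher and none lower (0.544% and 1.19%). Between dKO and Dnmt3C KO none of 8 was higher or lower (3.1% and 4.08%), nor was any of 9 in the interaction (3.68% and 1.87%). DESeq2 gave 2 calls for Dnmt3C KO against WT (IAPA_MM-int and IAPEz-int, both higher). It gave 1 for dKO against Nrf1 cKO and 1 for Nrf1 cKO against WT, both IAP1-MM_I-int, higher in dKO and lower in Nrf1 cKO. IAPEy-int, of whose 142 copies 92 lie between 2 IAPEY_LTR LTRs, had 5.37 and 3.09 CPM in WT, 0.425, 1.36 and 1.63 in Nrf1 cKO, 12.8, 4.55 and 7.68 in Dnmt3C KO and 6.44, 3.30 and 1.16 in dKO. Its log2 difference was -1.92 (SE 0.52) between Nrf1 cKO and WT, with an edgeR adjusted p of 0.784 and all Nrf1 cKO libraries below WT. Germ cell markers were lower in the same libraries (15 of 20, median log2 difference -1.24), and their part in the levels of IAPEy-int and IAP1-MM_I-int was not tested. IAP1-MM_I-int had 21.4 and 24.5 CPM in WT against 5.92, 11.9 and 7.24 in Nrf1 cKO, a log2 difference of -1.46 (SE 0.29, adjusted p of 0.556), and 19.2 to 38.3 CPM in dKO, above every Nrf1 cKO library (1.89, SE 0.32, adjusted p of 0.692). The 108 copies between IAP1-MM_LTR LTRs gave ratios of means of 1.98 for Dnmt3C KO to WT and 3.94 for dKO to Nrf1 cKO, neither with overlap.

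The machinery that methylates and silences these elements was read in the same count tables. Of 23 genes of piRNA-directed DNA methylation, 12 were lower in Nrf1 cKO than in WT at an unadjusted p under 0.05 and 11 lower in dKO than in Dnmt3C KO (4.22% and 4.08% of all features), with none at an adjusted p under 0.01 by edgeR. In the other comparisons 4 were lower in dKO than in WT (1.19%), and 2 of 22 tested were higher in dKO than in Nrf1 cKO (1.94%). Between Nrf1 cKO and WT the log2 difference was -2.17 for Tdrd12 and -1.30 for Mael, proteins of the germ granule that makes piRNAs, -1.76 for Tex15, which links the nuclear piRNA complex to methylation, and -1.03 for Pnldc1, the exonuclease that trims piRNAs. The germ cell markers, which share Ddx4, Mael and Tdrd1 with this list, were lower in the same libraries. The part of germ cells in the levels of these genes was not tested. Between Dnmt3C KO and WT 1 of the 23 was higher (2.56% of all features). Of 22 measured genes of chromatin repression of endogenous retroviruses, such as Setdb1 and Trim28, 1 was lower in Dnmt3C KO than in WT and 2 were lower in Nrf1 cKO than in WT at an unadjusted p under 0.05 (2.86% and 4.22% of all features). In the same list 2 genes lay above Dnmt3C KO in dKO, 1 lay above Nrf1 cKO in dKO and 3 had a positive interaction (3.1%, 1.94% and 3.68%). Sertoli cell markers, from the somatic cells that surround germ cells, summed to 4029 to 7405 CPM over the 11 libraries and lay above the germ cell markers in each, although the sample titles name germ cells. Red blood cell markers were lower at an unadjusted p under 0.05 in Dnmt3C KO and in dKO than in WT (4 of 4 in each, beside 2.86% and 1.19% of all features). Their sum was 598 and 1868 CPM in WT, 492 to 720 in Dnmt3C KO and 236 to 735 in dKO, so that only WT replicate 2 stood above both, and their part in the IAP levels was not tested.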

How the data were processed

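Poly-A RNA of 11 whole-testis libraries was sequenced with strand information. The authors aligned reads to GRCm38 (mm10) with STAR 2.7.3a, allowing 100 placements per read, and divided multiply placed reads among TE copies. The deposited count tables give counts per gene and TE subfamily for pairs of genotypes, with columns of the authors' own DESeq2 1.44.0 comparisons (fold changes and p-values), which were not used. The deposited copy table gives TPM per TE copy. The authors left out 1 replicate of each genotype for low RNA quality.

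TPM times copy length gave whole reads for 100% of values (tolerance 1e-06). Subfamilies were tested together with 33188 genes by edgeR 4.0.16 (quasi-likelihood, TMM, filterByExpr) on the counts, and copies by limma 3.58.1 on log2(TPM + 0.1) among copies of at least 0.5 TPM, with Benjamini-Hochberg adjustment over all features and a threshold of 0.01. DESeq2 1.42.0, edgeR on the recovered reads, other filters and pseudocounts, all-genotype fits, a replicate block and leaving out each library were alternatives. R 4.3.3, Python 3.11.15, pandas 2.3.3 and bedtools 2.31.1 were used. Tests were tried on simulated data first. LTRs were assigned to a copy when they lay within 10 bases of its locus. RPM use the recovered reads and TMM-scaled totals of the count tables, and genotypes overlap where a library of one lies within the range of the other.

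Named copies were the highest of each subfamily, the 12 highest overall and, in each comparison, the 3 of smallest p where none passed; loci were added by their reads, and other named copies after their values were seen. Members, marker and pathway lists and classes were chosen with earlier results of these data known. Nothing in the labels says that replicates were separate animals beyond their numbers, so p-values measure the spread between these libraries. Replicates differed beyond sampling noise (chi-square per degree of freedom 17.6 to 61.8), so each library was counted once. Intervals and floors cover counting error only.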

Additional observations from a re-analysis of the deposited data

Results flagged for a closer look

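4 of the named copies had TPM that did not overlap between Dnmt3C KO and WT in one direction and between dKO and Nrf1 cKO in the other. Of all 4801 members 12 (0.25%) had this pattern, beside 0.165% of TE copies above 0 TPM, and 7 (0.146%) in RPM, beside 0.287%. The difference itself was tested by the limma interaction term, and none passed the threshold (adjusted p of 0.7517 for each). IAPEY4_I-int_dup270 was higher in Dnmt3C KO than in WT and lower in dKO than in Nrf1 cKO, with an interaction of -1.05 (SE 0.36) on the log2 scale. IAPEY4_I-int_dup458 had -0.75 (SE 0.33) and IAPEz-int_dup5035 had -1.85 (SE 0.53) in the same sense. These 3 were also highest in Nrf1 cKO on the TPM scale. In RPM IAPEY4_I-int_dup270 and IAPEY4_I-int_dup458 overlapped in both comparisons, and IAPEz-int_dup5035 overlapped between dKO and Nrf1 cKO, so that the opposite directions rest on the TPM scale for these 3. IAPEz-int_dup6280, intergenic and between IAPLTR1_Mm LTRs, went the other way on both scales with 8.04 (SE 2.18), on 4 and 10 reads in WT, none in Dnmt3C KO or Nrf1 cKO, and 11, 5 and 5 in dKO.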

How the results depend on the processing

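Calls at an adjusted p under 0.01 were 0 in the fits reported. For subfamilies, Dnmt3C KO against WT gave 2 by DESeq2, 3 without the low-count filter and 0 to 1 on leaving out a library. For dKO against Nrf1 cKO, DESeq2 gave 1 and no filter 1, and for Nrf1 cKO against WT they gave 1 and 2. With the replicate number as a block, 3 subfamilies passed for Dnmt3C KO against WT and 2 for Nrf1 cKO against WT; same-numbered libraries did not deviate together (correlations -0.233 to 0.221), so the numbers were not taken to pair the libraries. They are those of the titles; the library names number the third of Dnmt3C KO and of dKO otherwise. For copies, dKO against Dnmt3C KO gave 1 without a filter and Nrf1 cKO against WT 3 in a fit of all genotypes. Leaving out a library gave 0 to 86 for Dnmt3C KO against WT, 0 to 120 for Nrf1 cKO against WT, 0 to 76 for dKO against WT and 0 to 52 for the interaction. The high values arose without a WT library, when the filter asks for 1 library only; 84 of the 86 and 119 of the 120 were then lower. edgeR on recovered reads called 0 in each comparison.

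Members numbered 2364 at 0.5 TPM or more and 1491 at 1 TPM. The 50 highest copies held 61.4% of the summed TPM in WT, 47.1% in Dnmt3C KO, 65.5% in Nrf1 cKO and 50.9% in dKO, and without IAPEY4_I-int the 10 highest held 25.1% in WT and 28.0% in Nrf1 cKO. The log2 ratio of summed TPM between Dnmt3C KO and WT was 1.08 scaled to all counts, 0.58 as subfamily CPM, 1.55 without IAPEY4_I-int and 1.15 to 1.43 on leaving out a library. Between dKO and Nrf1 cKO it was 0.69 scaled and 0.05 to 0.38 on leaving out a library, lowest without dKO replicate 1. Between dKO and Dnmt3C KO it was -0.25 as CPM and -0.86 to -0.48 on leaving out a library, between dKO and WT 0.32 and 0.46 to 0.80. Nrf1 cKO against WT turned direction, from 0.33 to 0.51 on leaving out a library to -0.12 scaled and -0.041 as CPM (TPM divides by TE reads; the cause was not tested). Copies higher at an unadjusted p under 0.05 numbered 151 to 227 for Dnmt3C KO against WT and 32 to 128 for dKO against Nrf1 cKO on leaving out a library. Depth limits single copies: 899 of 4801 rest on 1 read.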
